A study of Mus musculus with 8 samples.

Results

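The genes described here are 10 ETS family transcription factors, taken from the deposited count table by symbol: PU.1 itself (Spi1), its closest relatives Spib and Spic, the repressors Etv3, Etv6 and Elk3, and the factors Ets1, Ets2, Fli1 and Elf1. They are 10 of the 13786 protein-coding genes in the table, and each of the 10 had a row. RNA was sequenced from CD11c-positive splenocytes of 4 C57BL/6 and 4 B6.SLE123 mice, all female, untreated and 7 weeks old. B6.SLE123 mice are a lupus-prone congenic strain that carries the Sle1, Sle2 and Sle3 intervals of an NZM mouse on the C57BL/6 background, and C57BL/6 mice carry none of them. Both strains came from The Jackson Laboratory. Because the intervals are carried together, the part of any one of them cannot be told apart in this comparison. The cells were isolated by CD11c, which dendritic cells carry but which some macrophages, B cells and other leukocytes carry too. The labels call them dendritic cells, and the genotype label of the lupus-prone mice changes its last digits from mouse to mouse, so mice were assigned to strains by their sample names and the published methods. Each mouse gave between 25563070 and 37367094 counts, and the members had between 320 and 18546 counts in a mouse.

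ETS factors share a winged helix-turn-helix domain that binds DNA around the core GGAA, with the flanking bases and the partner proteins setting which member binds where. PU.1, encoded by Spi1, is needed for the formation of macrophages, dendritic cells, neutrophils and B cells, and often binds beside an interferon regulatory factor such as IRF4 or IRF8. Spi-B serves B cells and plasmacytoid dendritic cells, and Spi-C serves the red pulp macrophages of the spleen, which take up aged red cells and recycle their iron. Heme released from red cells induces Spic by causing loss of the repressor BACH1. Etv3, Etv6 and Elk3 encode ETS proteins that mostly repress transcription. Ets1 is most used by lymphocytes, Ets2 is a closely related factor that responds to growth factor signalling, Fli1 is needed for megakaryocytes, and Elf1 is expressed broadly in blood cells.

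The DNA before the start site is shown for 3 members, because Spic and Spib are the PU.1 relatives that fell and Etv6 is a repressor that rose. The sequences are from RefSeq on GRCm38.p6, the 250 bases upstream of the annotated start, 5′ to 3′ on the gene's strand, with the ETS core in capitals on either strand, as GGAA or TTCC. They lie at chr10:88683024-88683273 on the minus strand for Spic, chr7:44532072-44532321 on the minus strand for Spib, and chr6:134035450-134035699 on the plus strand for Etv6.
Spic: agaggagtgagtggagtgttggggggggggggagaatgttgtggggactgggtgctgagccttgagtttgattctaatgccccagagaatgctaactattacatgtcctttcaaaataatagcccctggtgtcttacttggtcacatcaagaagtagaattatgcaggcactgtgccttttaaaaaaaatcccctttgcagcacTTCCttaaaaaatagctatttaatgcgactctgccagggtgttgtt
Spib: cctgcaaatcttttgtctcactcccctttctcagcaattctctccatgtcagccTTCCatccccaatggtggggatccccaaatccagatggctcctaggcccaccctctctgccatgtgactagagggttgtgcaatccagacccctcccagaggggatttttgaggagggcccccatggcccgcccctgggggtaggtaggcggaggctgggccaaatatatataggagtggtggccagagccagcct
Etv6: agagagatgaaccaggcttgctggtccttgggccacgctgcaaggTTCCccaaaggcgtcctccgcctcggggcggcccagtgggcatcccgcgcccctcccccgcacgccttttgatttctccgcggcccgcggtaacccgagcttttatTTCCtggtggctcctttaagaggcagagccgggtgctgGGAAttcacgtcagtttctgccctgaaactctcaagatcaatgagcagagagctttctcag
The windows of Spic and Spib each held 1 ETS core and that of Etv6 held 3. The core is short and common: GGAA, searched on both strands, occurred in 93.4% of 32851 RefSeq promoter windows cut to the same 250 upstream bases, with a median of 3. The letters GAGGAAGT, one form of a PU.1 site, occurred in 2.44% of all windows, the ETS and interferon regulatory factor composite GGAANNGAA in 6.99%, and TGANTCA, the core of AP-1 and MAF sites, in 6.75%. Each of these motifs was searched on both strands, and GAGGAAGT and GGAANNGAA contain the core. Neither GAGGAAGT nor GGAANNGAA was found in any of the 8 windows of the 7 matched members, and TGANTCA was found once, in 1 of the 2 windows of Elf1. Such matches describe these letters in these windows only. Spi1, Ets1 and Fli1 had no matched window.

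The comparison of the strains asked which members differed in RNA level in the lupus-prone mice before overt disease. Of the 10 members, 9 passed an adjusted p of 0.05 in the quasi-likelihood test of edgeR, adjusted by Benjamini-Hochberg over all genes, against 53.4% of the 13786 genes tested. Spi1, Etv3, Etv6 and Elf1 were higher in B6.SLE123 mice, where 26.7% of all genes were called higher. Spib, Spic, Ets1, Ets2 and Fli1 were lower, where 26.6% of all genes were called lower. Elk3 was not called. The median log2 fold change of the 10 members was -0.09 and that of all genes was -0.002. Most of the called changes were small, and 2 members, Spic and Ets2, passed the threshold with a change of more than 2-fold, against 11.1% of all genes. The members are well covered genes, and calls were more frequent among such genes: of the 5970 genes with a mean of at least 1000 counts, 62.4% were called, and 8 of the 9 members in that range were called. In the same range 4.69% of genes were called with a more than 2-fold change, and Spic was the 1 member among them. The 4 values of one strain lay wholly above or below those of the other for 9 members, again all but Elk3, against 48.9% of all genes.

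**Figure D1:**
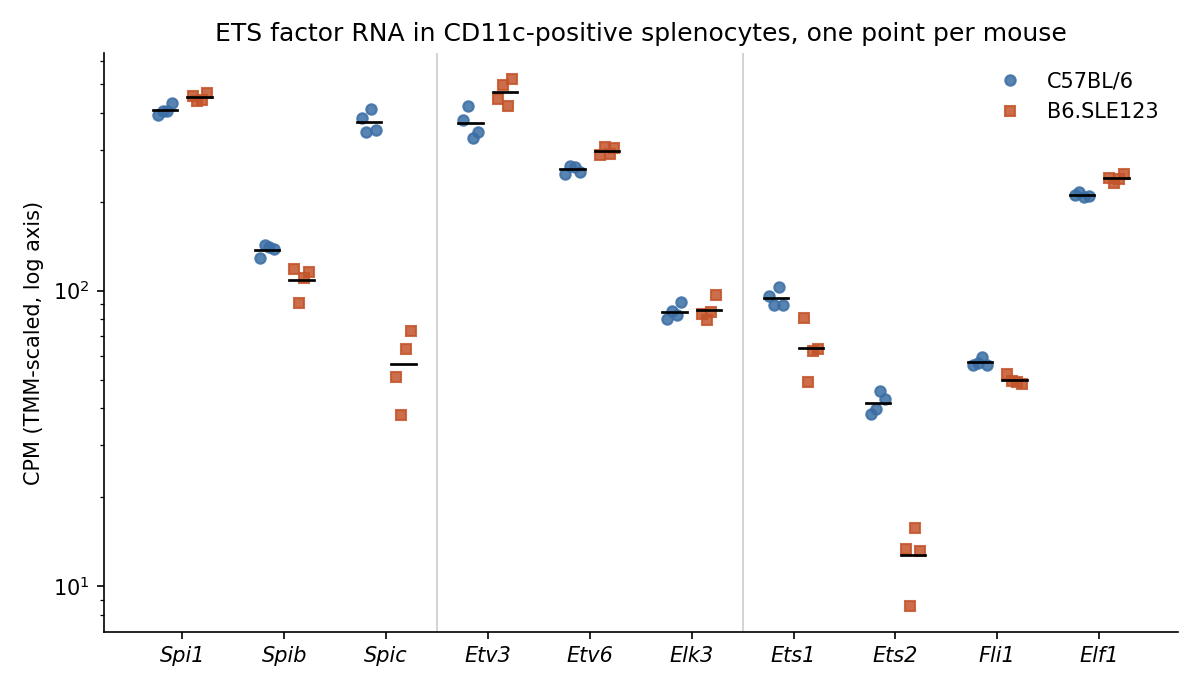
Level of each of the 10 members in every mouse, in CPM (counts relative to library size) on a log axis, with C57BL/6 mice as circles, B6.SLE123 mice as squares and a bar at each strain's mean (n = 4). The strains overlapped for Elk3 alone, and the widest gaps were those of Spic (373 and 56.4 CPM) and Ets2 (41.7 and 12.8 CPM).

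Spi1 RNA, which encodes PU.1, was slightly higher in the lupus-prone mice. In CPM, which are counts divided by library size and scaled by TMM, the 4 C57BL/6 mice had 392, 405, 404 and 433 CPM and the 4 B6.SLE123 mice had 456, 439, 442 and 467 CPM. The highest C57BL/6 mouse stayed just below the lowest B6.SLE123 mouse. The means were 409 ± 17.2 and 451 ± 12.9 CPM (SD, n = 4 each). The log2 fold change, given throughout as B6.SLE123 over C57BL/6, was 0.14 (SE 0.0433, edgeR adjusted p = 0.0169), a rise of 10.4%. The call depended on single mice: without C57BL/6 replicate 1 the adjusted p was 0.0553 and without B6.SLE123 replicate 4 it was 0.0701, with log2 fold changes between 0.115 and 0.162 over all 8 omissions. Spi1 (ENSMUSG00000002111.8) lies on chromosome 2 of mm10 from 91082390 to 91115756 on the plus strand, and no other annotated gene overlaps it.

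Spic showed the largest change of the members. The C57BL/6 mice had 384, 344, 413 and 351 CPM, and the B6.SLE123 mice had 50.9, 38.0, 63.4 and 73.1 CPM. Every C57BL/6 mouse was thus far above every B6.SLE123 mouse, although the B6.SLE123 mice also differed among themselves, with a coefficient of variation of 27% against 8.53% in C57BL/6. The means were 373 ± 31.9 and 56.4 ± 15.2 CPM (SD, n = 4 each), which is 6.64-fold lower (log2 fold change -2.73, SE 0.167, edgeR adjusted p = 5.57e-07). Among the 5970 genes with a mean of at least 1000 counts, 12 had a lower log2 fold change than Spic. Spic (ENSMUSG00000004359.16) lies on chromosome 10 from 88674772 to 88685015 on the minus strand, with no overlapping gene. The RefSeq start used for the printed promoter, 88683023, lies inside that span, so GENCODE annotates a further upstream start.

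Markers of red pulp macrophages, the cells known for Spic, moved with it. All 15 listed markers were called lower, with log2 fold changes between -2.75 and -0.96 and a median of -2.39, and their summed level was 13691 to 17464 CPM in C57BL/6 mice and 2199 to 4079 CPM in B6.SLE123 mice. Csf1r, the receptor of the macrophage growth factor CSF1, fell by 2.18 on the log2 scale. Treml4 and Cd68, which other cells of the preparation may also express, fell by 1.05 and by 0.96; these last genes were named after their values were seen. B6.SLE123 replicate 2 was the lowest of its strain both for Spic, at 38.0 CPM, and for the summed markers, and replicate 4 was the highest for both, at 73.1 CPM for Spic. In bulk RNA, fewer cells of a type and less RNA per cell cannot be told apart.

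Spic fell further than the average of those markers, by an amount that depended on which markers were taken. The log2 ratio of Spic to the mean of the 15 markers was -0.80, -0.81, -0.89 and -0.90 in C57BL/6 mice and -1.38, -1.47, -1.45 and -1.37 in B6.SLE123 mice. The strains were well apart and the mice of a strain were close together. The difference was -0.57 on the log2 scale, 1.48-fold (exact two-sided permutation test, p = 0.0286, adjusted p = 0.0343 over the 6 ratios tested). The smallest p that 4 mice against 4 can give is 0.0286. Of the 15 markers themselves, 1, Mertk, an engulfment receptor of macrophages, had a log2 fold change below that of Spic, so the markers did not fall equally either. Without Treml4 and Cd68 the difference was -0.39, and without Adgre1 and Siglec1 as well it was -0.27 (1.21-fold). The strains did not overlap in either case, and these shorter lists were chosen after seeing the data and were not tested. The part of cell makeup in the change of Spic was not tested beyond this ratio.

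Genes around the heme control of Spic were mostly lower. Of 6 on the list, 5 were lower, 1 was not called, and the median log2 fold change was -1.45. Hmox1, the enzyme that breaks down heme, fell from 1932 ± 197 to 344 ± 98.6 CPM (SD, n = 4 each, 5.62-fold lower, edgeR adjusted p = 1.23e-06). Slc40a1, the iron exporter ferroportin, was 6.42-fold lower and Vcam1, an adhesion molecule that SPI-C is known to induce, was 5.45-fold lower. All 3 of these are also on the red pulp macrophage list, so they add no separate evidence. Vcam1 overlaps another annotated gene, and its counts are less certain for that reason. Bach1, the heme-sensing repressor, had 119 ± 7.24 CPM in C57BL/6 and 126 ± 6.42 CPM in B6.SLE123 mice (SD, n = 4 each, edgeR adjusted p = 0.251), and its log2 fold change of 0.08 had a 95% interval from -0.042 to 0.196. Bach2, its relative in lymphocytes, fell by 0.44, and Nfe2l2, which encodes the oxidative stress factor NRF2, fell by 0.29 on the log2 scale.

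Spib RNA was moderately lower. The C57BL/6 mice had 129, 143, 141 and 138 CPM and the B6.SLE123 mice had 118, 90.9, 110 and 116 CPM. The lowest C57BL/6 mouse was above the highest B6.SLE123 mouse, and B6.SLE123 replicate 2 stood lowest. The means of 138 ± 5.95 and 109 ± 12.5 CPM (SD, n = 4 each) gave a log2 fold change of -0.34 (SE 0.0759, edgeR adjusted p = 0.00333), so that it fell by 20.8%. Spib (ENSMUSG00000008193.13) lies on chromosome 7 from 44525993 to 44532071 on the minus strand, without an overlapping gene. Chromosome 7 also carries Sle3. Of the 129 tested genes between 40 and 50 Mb of chromosome 7, 90 were called, which is 69.8% against 53.4% over the whole table, and 39 were called with a more than 2-fold change, against 11.1% of the whole table. The bounds of Sle3 are not given in the sources used here, and this window is a round span that holds Spib. The part of Sle3 in the fall of Spib was not tested.

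The cells best known for Spib are B cells and plasmacytoid dendritic cells, and the markers of these cells did not behave alike. Of 12 B cell markers, 9 were lower, 1 was higher, 2 were not called, and the median log2 fold change was -0.64, with a summed level of 1005 to 1114 CPM in C57BL/6 and 795 to 928 CPM in B6.SLE123 mice. The most abundant of them, Cd22, an inhibitory receptor, rose by 0.34 on the log2 scale, whereas Cd37, a tetraspanin, fell by 0.88 and Ms4a1, which encodes CD20, had a log2 fold change of -0.09. Of 10 markers of plasmacytoid dendritic cells, 3 were higher, 3 were lower and 4 were not called, the median was 0.12, and the summed levels overlapped, at 534 to 565 and 514 to 577 CPM. Among the latter Tlr9, a receptor for DNA, rose by 0.20, and the values of Tcf4 and Bst2 were -0.15 and 0.13 and were not called.

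Set against these lists in full, a difference in Spib was found for the B cell markers only. Its log2 ratio to the B cell markers was 1.23 ± 0.05 in C57BL/6 and 1.39 ± 0.08 in B6.SLE123 mice (SD, n = 4 each), a difference of 0.16 without overlap (exact permutation test, p = 0.0286, adjusted p = 0.0343), so that Spib fell less than the mean of those markers. The 9 lower markers had log2 fold changes from -1.07 to -0.52, whereas Ms4a1 (-0.09), Blk (0.07) and Cd22 (0.34) were above the -0.34 of Spib. Its log2 ratio to the markers of plasmacytoid dendritic cells was 2.0 ± 0.09 and 1.96 ± 0.15 (SD, n = 4 each), with overlap between the strains (difference -0.04, exact permutation test, p = 0.657, adjusted p = 0.657). The mean of the plasmacytoid list was drawn down by Cox6a2 (-2.71), Klk1 (-1.50) and Ly6d (-0.59), named after their values were seen. Its other markers lay between -0.15 and 0.95, all above the -0.34 of Spib, and the list median was 0.12. The small difference thus depended on those low markers, and no ratio without them was computed. The part of either cell type in the level of Spib was not tested further.

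In RPKM, that is CPM divided by the exon length in kilobases, which allows genes to be compared, the 3 genes of the PU.1 class made up 297 ± 8.04 RPKM in C57BL/6 and 220 ± 11.7 RPKM in B6.SLE123 mice (SD, n = 4 each). In C57BL/6 mice Spi1 was 51.1% ± 2.02 of that sum, Spic 32.8% ± 2.34 and Spib 16.2% ± 0.723 (SD, n = 4). In B6.SLE123 mice the shares were 76.2% ± 2.42 for Spi1, 6.62% ± 1.52 for Spic and 17.2% ± 1.23 for Spib (SD, n = 4). The share of Spic ran from 30.5% to 35.1% in C57BL/6 and from 4.84% to 8.17% in B6.SLE123 mice, while the shares of Spib overlapped. By RPKM, Spi1 was therefore the most abundant of the class in every mouse, and the second place passed from Spic to Spib. This order depends on the exon lengths, which count every annotated exon. In CPM, C57BL/6 replicate 3 had Spic at 413 and Spi1 at 404.

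**Figure D2:**
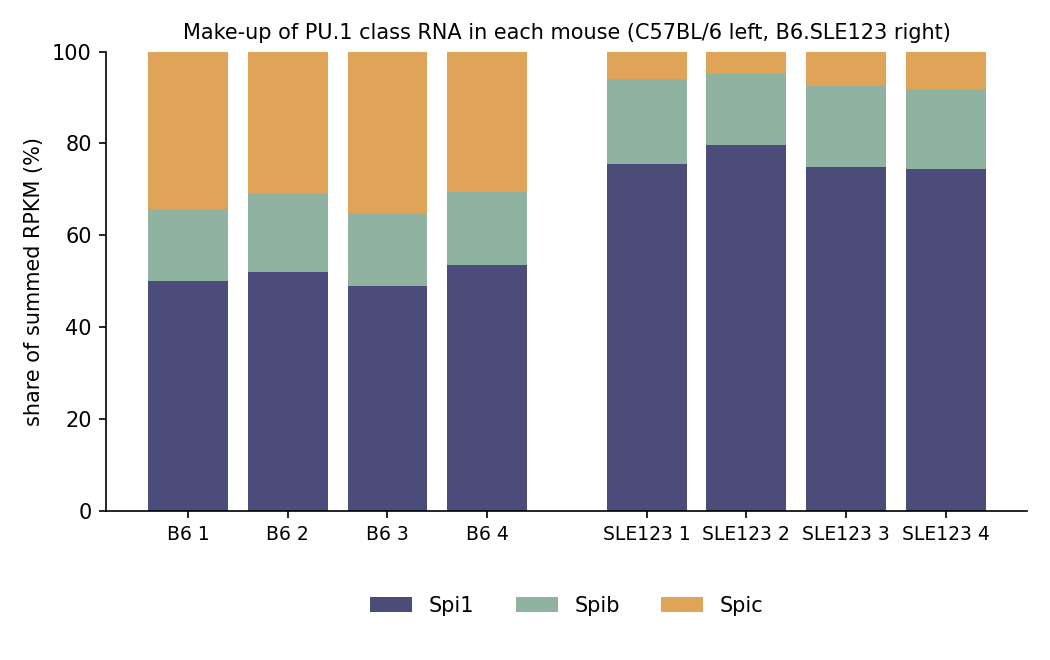
Share in percent of the summed RPKM of Spi1, Spib and Spic in each mouse, as stacked bars, with the 4 C57BL/6 mice on the left and the 4 B6.SLE123 mice on the right. The Spic share was 30.5% to 35.1% in C57BL/6 and 4.84% to 8.17% in B6.SLE123 mice, and the Spi1 share was larger in each B6.SLE123 mouse than in any C57BL/6 mouse.

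The unequal change within the class was also expressed as ratios. Spi1 was higher in every B6.SLE123 mouse than in any C57BL/6 mouse, and Spic and Spib were lower in every one. Neither ratio could therefore overlap between the strains, and each exact p had to take its smallest value. These tests thus add no evidence beyond the calls of the single genes. The log2 ratio of Spic to Spi1 in CPM was -0.03, -0.23, 0.03 and -0.30 in C57BL/6 mice and -3.16, -3.53, -2.80 and -2.67 in B6.SLE123 mice. The difference was -2.91, or 7.51-fold (exact permutation test, p = 0.0286, adjusted p = 0.0343). The log2 ratio of Spib to Spi1 was -1.57 ± 0.07 and -2.06 ± 0.15 (SD, n = 4 each), a difference of -0.49 or 1.40-fold, again without overlap (exact permutation test, p = 0.0286, adjusted p = 0.0343). The log2 fold changes of the 3 relatives, 0.14 for Spi1, -0.34 for Spib and -2.73 for Spic, were unequal.

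Among the repressors, Etv3 and Etv6 were higher and Elk3 was not called. Etv3, whose product limits proliferation of macrophages and takes part in the differentiation of monocytes, had 379, 421, 328 and 345 CPM in C57BL/6 mice and 445, 498, 421 and 519 CPM in B6.SLE123 mice. The highest C57BL/6 mouse and the lowest B6.SLE123 mouse round to the same value and were only just apart. The means of 368 ± 40.7 and 471 ± 45.4 CPM (SD, n = 4 each) gave a log2 fold change of 0.35 (SE 0.0855, edgeR adjusted p = 0.00498), a rise of 27.8%. Etv6, a repressor needed for blood stem cells, had 249, 265, 262 and 253 CPM in C57BL/6 and 288, 307, 289 and 304 CPM. The mice of each strain were close together and the strains did not overlap (257 ± 7.40 and 297 ± 9.83 CPM, SD, n = 4 each, log2 fold change 0.21, SE 0.0407, edgeR adjusted p = 0.00137). Elk3, a partner of serum response factor that turns from repressor to activator when phosphorylated, had 80.0, 85.1, 82.6 and 91.3 CPM in C57BL/6 and 83.2, 79.6, 84.8 and 96.7 CPM in B6.SLE123 mice. These values overlapped, and the log2 fold change of 0.02 had a 95% interval from -0.120 to 0.163 (edgeR adjusted p = 0.797).

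Etv3 (ENSMUSG00000003382.18) lies on chromosome 3 from 87525407 to 87540156 on the plus strand and overlaps no other gene. Etv6 (ENSMUSG00000030199.16), on chromosome 6 from 134035700 to 134270158 on the plus strand, overlaps 5 annotated genes, and Elk3 (ENSMUSG00000008398.15), on chromosome 10 from 93247414 to 93311135 on the minus strand, overlaps Cdk17 on the other strand. The libraries were made with a stranded kit, but whether the counting used the strand is not given in the sources used here, so the counts of overlapping genes are less certain.

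Ets1, Ets2 and Fli1 were lower and Elf1 was higher. Ets1 had 96.3, 89.4, 103 and 89.2 CPM in C57BL/6 mice and 80.8, 49.2, 62.6 and 63.5 CPM in B6.SLE123 mice. The strains did not overlap, but B6.SLE123 replicate 1 was near the C57BL/6 mice and replicate 2 was lowest. The log2 fold change was -0.56 (SE 0.120, edgeR adjusted p = 0.00236), from 94.4 ± 6.42 to 64.0 ± 13 CPM (SD, n = 4 each). Ets2 had 38.4, 39.7, 45.9 and 42.9 CPM and then 13.4, 8.6, 15.8 and 13.2 CPM. No B6.SLE123 mouse came near the C57BL/6 range, and the level was 3.28-fold lower (log2 fold change -1.71, SE 0.146, edgeR adjusted p = 3.9e-06).

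Fli1 had a small fall, from 56.1, 57.1, 59.7 and 56.0 CPM in C57BL/6 mice to 52.4, 49.6, 49.2 and 48.5 CPM in B6.SLE123 mice. All 8 mice lay close to their strain's mean (57.2 ± 1.70 and 49.9 ± 1.70 CPM, SD, n = 4 each, log2 fold change -0.20, SE 0.0428, edgeR adjusted p = 0.00262). Elf1 had 210, 215, 207 and 209 CPM and then 241, 232, 238 and 248 CPM. It had the lowest coefficient of variation of the members in C57BL/6 mice, 1.62%, and rose by 13.8% (210 ± 3.41 and 240 ± 6.86 CPM, SD, n = 4 each, log2 fold change 0.19, SE 0.0375, edgeR adjusted p = 0.00161). Over the 10 members, B6.SLE123 replicate 2 was the lowest mouse of its strain for 7, namely Spi1, Spib, Spic, Elk3, Ets1, Ets2 and Elf1.

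T cell markers were set beside Ets1 because T cells use it heavily. Of 12 on the list, 2 were higher, 2 were lower and 8 were not called, with a median log2 fold change of -0.20. The higher genes were Tcf7 and Cd5, and the lower were Lck, a T cell receptor kinase, and Lef1, a partner of beta-catenin, which was named after its values were seen. Without Tcf7 and Cd5 the summed level of the list was 34.2 to 49.3 CPM in C57BL/6 and 27.5 to 40.4 CPM in B6.SLE123 mice, so these genes were near the bottom of what the libraries measured. The log2 ratio of Ets1 to the list was 4.30 ± 0.18 and 3.83 ± 0.11 (SD, n = 4 each), a difference of -0.47 without overlap (exact permutation test, p = 0.0286, adjusted p = 0.0343). This ratio included Tcf7 and Cd5. Against the other 10 markers, a set chosen after seeing the data and so not tested, the difference was -0.32 and the strains overlapped. The part of T cells or of other cells in the level of Ets1 was not tested beyond this ratio. Platelet and megakaryocyte markers, which were set beside Fli1, summed to 76.5 to 84.1 CPM in C57BL/6 and 32.2 to 40.9 CPM in B6.SLE123 mice, and Ppbp, one of their defining genes, was under 1 CPM in every mouse. Of the 6 in the table, 4 were not called, with strain means of at most 1.84 CPM. Itgb3 and Clec1b were lower, from 31.1 to 25.5 and from 45.7 to 8.71 CPM (means of 4 mice). Most of the fall in the sum was thus that of Clec1b. The part of such cells in the fall of Fli1 was not tested.

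Ets1 (ENSMUSG00000032035.16) and Fli1 (ENSMUSG00000016087.13) are neighbours on chromosome 9. Ets1 runs from 32636221 to 32757820 on the plus strand and Fli1 from 32422204 to 32542861 on the minus strand, and 93359 bases separate them. Both were lower in B6.SLE123 mice, Ets1 by 0.56 and Fli1 by 0.20 on the log2 scale. Fli1 overlaps 6 annotated genes and Ets1 overlaps 1. Ets2 (ENSMUSG00000022895.16) lies on chromosome 16 from 95702075 to 95721051 on the plus strand with no overlapping gene, and Elf1 (ENSMUSG00000036461.16) on chromosome 14 from 79481194 to 79582494 on the plus strand, where it overlaps 2 genes on the other strand.

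In order of RPKM, the C57BL/6 mice had Spi1 at 152 ± 6.38, Spic at 97.2 ± 8.30, Spib at 48.0 ± 2.08, Etv6 at 43.0 ± 1.24, Etv3 at 35.9 ± 3.96, Elf1 at 31.2 ± 0.506, Elk3 at 18.6 ± 1.06, Fli1 at 16.4 ± 0.489, Ets1 at 11.1 ± 0.758 and Ets2 at 7.22 ± 0.579 RPKM (SD, n = 4). No 2 neighbours in this order overlapped. In B6.SLE123 mice the order was Spi1 at 167 ± 4.79, Etv6 at 49.6 ± 1.64, Etv3 at 45.8 ± 4.42, Spib at 38.0 ± 4.36, Elf1 at 35.6 ± 1.02, Elk3 at 18.9 ± 1.63, Spic at 14.7 ± 3.96, Fli1 at 14.3 ± 0.488, Ets1 at 7.55 ± 1.53 and Ets2 at 2.21 ± 0.521 RPKM (SD, n = 4). There Etv6 and Etv3 overlapped, as did Etv3 and Spib, Spib and Elf1, Elk3 and Spic, and Spic and Fli1. Spic, second in C57BL/6 mice, thus ranked with Elk3 and Fli1 in the lupus-prone mice.

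The rest of the ETS family was examined from a list of 17 other genes, of which 11 were in the table. Of these, 3 were higher, 4 were lower and 4 were not called, with a median log2 fold change of 0.02. The higher genes were Erf, a repressor, at 0.43 (edgeR adjusted p = 0.000125), Elf4, at 0.21, and Ehf, at 0.33 on the log2 scale. The lower genes included Etv1 and Etv5, both of the PEA3 class. Etv1 had 11.5, 7.49, 11.9 and 9.43 CPM in C57BL/6 and 1.96, 1.10, 2.57 and 2.28 CPM in B6.SLE123 mice, 5.14-fold lower without overlap (edgeR adjusted p = 1e-05). Etv5 fell by 1.0, and Elk1 and Elf2 had small falls, by 0.22 and by 0.14 on the log2 scale. Gabpa (0.03), Elk4 (0.02), Etv4 (-0.15) and Erg (0.29) were not called, and the last 2 of these genes were under 1 CPM in every mouse.

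**Figure D3:**
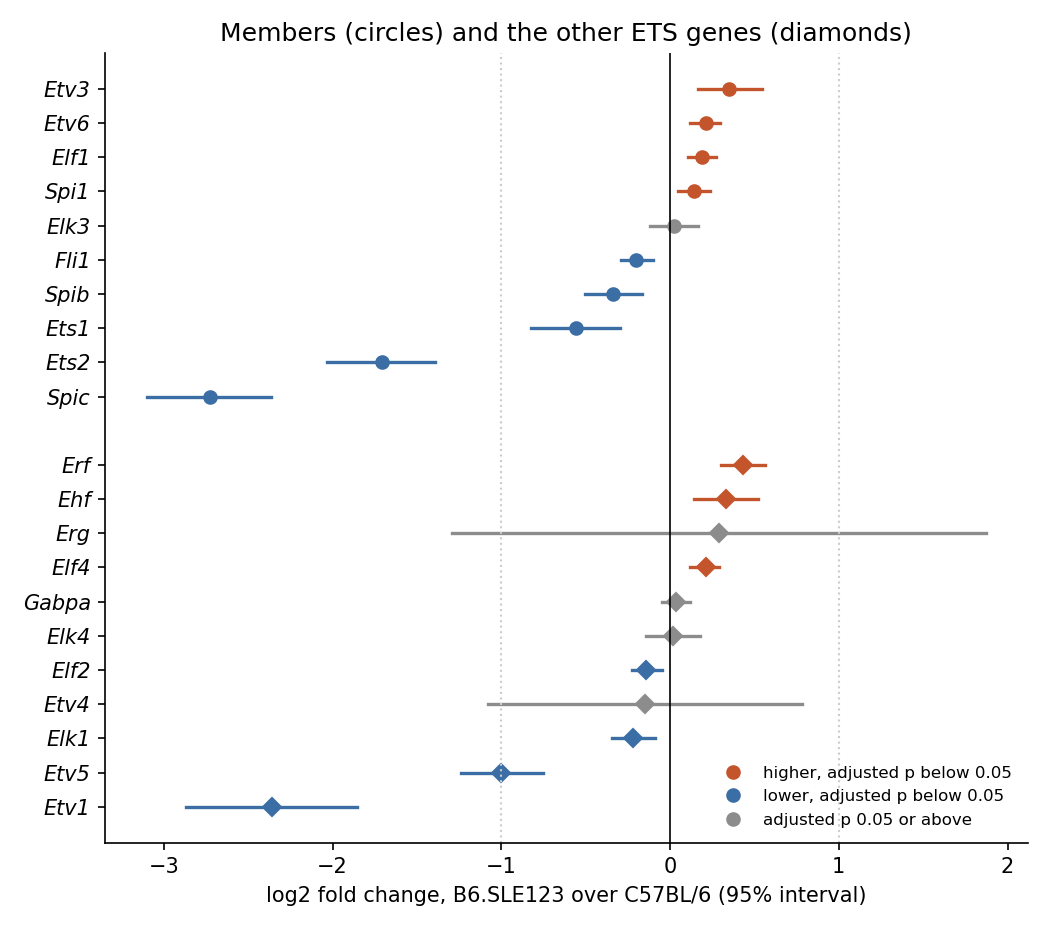
Log2 fold change, B6.SLE123 over C57BL/6, of the 10 members (circles) and the 11 other ETS genes in the table (diamonds), with 95% intervals as lines and colour marking edgeR calls at an adjusted p below 0.05. Spic (-2.73), Etv1 (-2.36) and Ets2 (-1.71) were farthest from 0, and Etv4 and Erg had wide intervals.

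Partners and antagonists of PU.1 were not uniform. Of 8 partner genes in the table, 1 was higher, 6 were lower and 1 was not called, with a median log2 fold change of -0.42. Irf8, which encodes the interferon regulatory factor needed for type 1 conventional dendritic cells, was higher, at 708 ± 68.6 and 987 ± 171 CPM (SD, n = 4 each, log2 fold change 0.48, edgeR adjusted p = 0.00514). Irf4, the related factor, had a log2 fold change of 0.07 (edgeR adjusted p = 0.509). Cebpa and Cebpb, factors of myeloid differentiation and inflammation, fell by 0.60 and by 0.89. Jun, an AP-1 subunit, fell by 1.13, Mitf, a factor of lysosome-rich cells, fell by 1.33, Runx1 fell by 0.24 and Batf3 fell by 0.14 on the log2 scale. Of the 4 antagonists in the table, Gfi1, Myb and Ikzf1 were higher, by 0.52, 0.29 and 0.19 on the log2 scale, and Gata2, with 0.203 ± 0.0718 and 0.156 ± 0.081 CPM (SD, n = 4 each), was not called. With 1 mouse left out, Batf3 lost its call in 6 of 8 fits (edgeR adjusted p up to 0.0923), and Gfi1 and Myb lost theirs in 4 of 8 each (up to 0.0646 and 0.0833).

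Of 24 known PU.1 target genes, 17 were lower, 4 were higher and 3 were not called, where 26.6% of all genes were called lower and 26.7% higher. Their median log2 fold change was -1.09, and their summed level went from 10550 to 12089 CPM in C57BL/6 to 5621 to 6671 CPM in B6.SLE123 mice. The list holds C1qa, C1qb, C1qc and Zfp521, which the study itself examined, and without them 14 of 20 were lower, 4 were higher and the median was -0.69. The most abundant targets moved in different directions. Itgax, which encodes CD11c, the protein used to isolate the cells, was higher, at 1329 ± 77.9 and 1543 ± 93.4 CPM (SD, n = 4 each, log2 fold change 0.22, edgeR adjusted p = 0.00942). Csf1r, also a macrophage marker, was 4.52-fold lower, at 2324 ± 230 and 515 ± 134 CPM (SD, n = 4 each, edgeR adjusted p = 2.2e-06), and Itgb2, the beta chain of the CD11 integrins, fell by 0.21 on the log2 scale. The other higher genes were Flt3, a growth factor receptor of dendritic cells, at 0.39, Ncf1, a subunit of the phagocyte oxidase, at 0.22, and Il7r, a lymphoid cytokine receptor, at 0.73. Btk, Lyz2 and Zfp521 were the 3 not called, at -0.03, -0.20 and 0.04. Several of the targets with the largest falls are genes that macrophages express strongly: Fcgr3 fell by 2.58, Cd14 fell by 2.56, Mrc1 fell by 2.51, Msr1 fell by 2.43 and Fcgr1 fell by 2.32 on the log2 scale, beside a median of -2.39 for the red pulp macrophage markers. The part of those cells in the change of the list was not tested. The genes after Itgb2 were named after their values were seen.

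**Figure D4:**
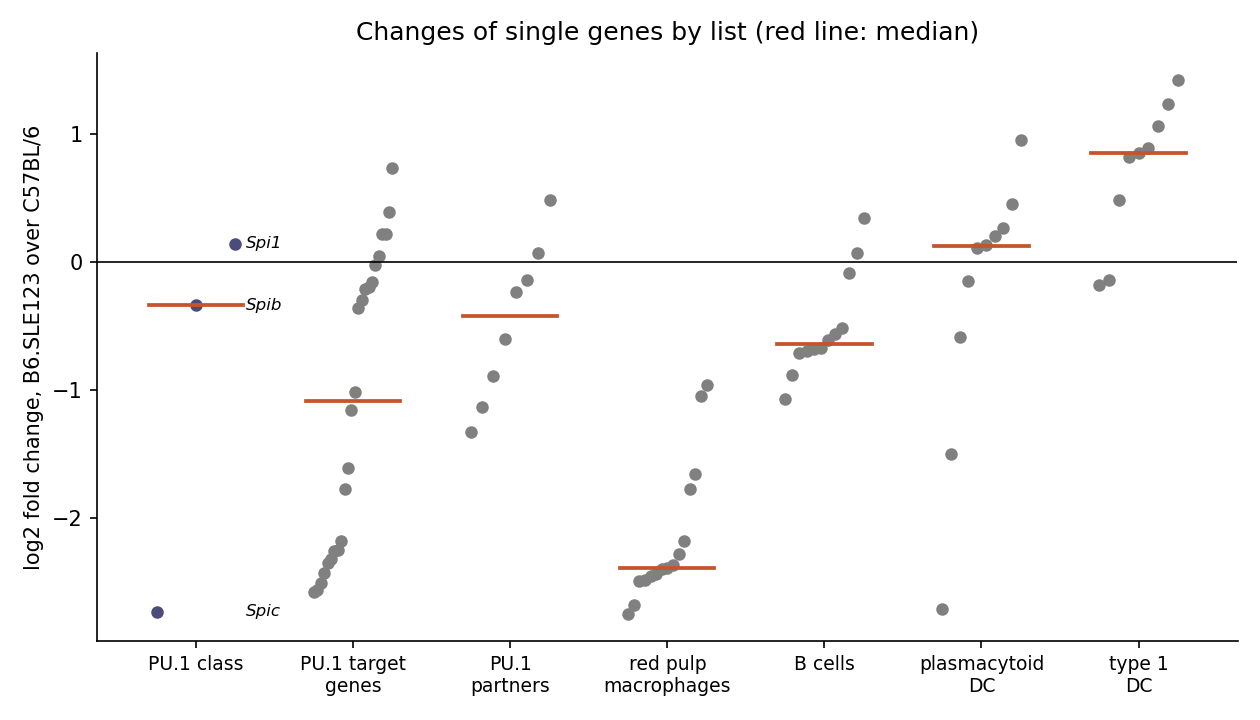
Log2 fold change, B6.SLE123 over C57BL/6, of each gene of the PU.1 class, of PU.1 targets and partners and of 4 marker lists (DC, dendritic cells), with 1 point per gene and a red line at each list's median. The medians were -1.09 for PU.1 targets, -2.39 for red pulp macrophages, -0.64 for B cells, 0.12 for plasmacytoid and 0.85 for type 1 conventional dendritic cells.

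Markers of other cell types differed between the strains beside these changes. Of 9 markers of type 1 conventional dendritic cells, 7 were higher, Batf3 was lower and Cadm1 was not called, with a summed level of 3497 to 3999 CPM in C57BL/6 and 5387 to 7110 CPM in B6.SLE123 mice and a median of 0.85. The most abundant were Wdfy4, a factor of cross-presentation, Irf8 and the acid amidase Naaa, which rose by 0.85, 0.48 and 1.06 on the log2 scale. Marginal zone macrophage markers summed to 290 to 345 CPM in C57BL/6 and 48.6 to 80.9 CPM in B6.SLE123 mice, and Nr1h3, Timd4 and Marco, the most abundant, fell by 2.41, by 2.05 and by 2.10. Of the 5 on the list, 4 were lower. Cd209b had a log2 fold change of -1.16 with overlap between the strains, and Colec12 was not called, at -0.72. Both were named after their values were seen. The median of type 2 conventional dendritic cell markers was -0.17, of monocyte markers -0.20 and of neutrophil markers -0.23. In the same order their summed levels were 2622 to 2817, 848 to 933 and 86.3 to 95 CPM in C57BL/6 mice. In B6.SLE123 mice they were 1792 to 2237, 451 to 613 and 29.4 to 44.3 CPM, without overlap. Their most abundant genes, Sirpa, Treml4 and Csf3r, fell by 0.91, 1.05 and 1.61. Of 9 type 2 markers, 1 was higher, 2 were lower and 6 were not called. Of 10 monocyte markers, 4 were lower and 6 were not called, and Treml4 is also on the red pulp list. Of 9 neutrophil markers in the table, 3 were higher, 3 were lower and 3 were not called. The fall in the type 2 sum lay mostly in Sirpa (1784 to 950 CPM), and that in the neutrophil sum in Csf3r (76.5 to 25.2 CPM, means of 4 mice). Of 7 plasma cell markers, 3 were higher, 2 were lower and 2 were not called. Their summed levels overlapped, at 179 to 215 and 158 to 230 CPM. Their median of 0.97 was that of Tnfrsf17 (at most 6 counts), and the most abundant, Xbp1, fell by 0.39. No NK cell marker was called (median -0.23). Erythroid markers had a median of -2.72, but their summed level overlapped between the strains, at 186 to 368 and 246 to 298 CPM, because Tfrc, the transferrin receptor, which dividing cells also express, rose by 1.09 (114 to 242 CPM, means of 4 mice). The part of these cells in the changes of the members was not tested, except by the ratios given above.

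The genes whose log2 CPM stayed at the most constant distance from a PU.1 class gene over the 8 mice were sought among 10619 genes with a mean of at least 100 counts. The measure was the SD of the log2 difference, which is small for any gene with a like change between the strains. For Spic these were Hpgd, which breaks down prostaglandins (SD 0.058, log2 fold change -2.77), Scamp5 (SD 0.074, -2.69) and Raver2 (SD 0.077, -2.80). For Spib they were Cybb, the catalytic subunit of the phagocyte oxidase (SD 0.053), Dynlt3 (0.057) and Slc41a3 (0.058). For Spi1 they were the chloride channel protein Clic1 (0.021), Ccdc71 (0.023) and the mannose 6-phosphate receptor M6pr (0.026).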

How the data were processed

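RNA of CD11c-positive splenocytes was measured in 8 numbered samples taken as separate mice. Reads had been trimmed (cutadapt), mapped to mm10 (STAR) and assigned to genes (featureCounts), and the columns used here are the raw counts that the authors deposited, without normalization. Every deposited gene reached a median of 5 counts in at least 1 strain. Columns with the authors' DESeq2 comparison (mean normalized level, fold changes, test statistic and p-values) were not used. For 21 genes a date stood in place of the symbol, which was recovered by identifier.

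Strains were compared by the quasi-likelihood F test of edgeR 4.0.16 in R 4.3.3 with TMM scaling, adjusted over 13786 genes without a filter, and the procedure was tested on simulated data. SE values are the log2 fold change over the root of F, and log2 CPM for ratios used a prior count of 2. RPKM used the summed exon length of GENCODE M21. Ratios were compared by exact two-sided permutation over mice. The edgeR p-values set the difference between the strains against the spread among these samples within a strain. The permutation p-values set it against all regroupings of the same samples.

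The members and gene lists were chosen with earlier results of these data known. Named genes are the members, all genes of the other ETS, partner, antagonist and heme lists, the 3 most abundant of the target and marker lists, and the 3 most alike in pattern to each PU.1 class gene. Alternatives were relative log expression factors, at least 10 counts in every sample, DESeq2 1.42.0, limma-voom (limma 3.58.1), the replicate number as a block, and each mouse left out.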

Additional observations from a re-analysis of the deposited data

Results flagged for a closer look

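In 3 of 90 strain groups of 4 mice tested, 1 mouse stood apart from the rest of its strain, where about 1 in 20 groups, or 4.5, would do so by chance. Erf was 33.3 CPM in B6.SLE123 replicate 3 and 30.1 to 30.5 CPM in the other mice of the strain. Irf4 was 127 CPM in B6.SLE123 replicate 4 and 103 to 105 CPM in the others. Cebpa was 57.1 CPM in C57BL/6 replicate 2 and 61.9 to 62.1 CPM in the others. None of the 3 is one of the 10 members.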

How the results depend on the processing

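The number of members called stayed at 9 under relative log expression factors, the filter of 10 counts, DESeq2, limma-voom, the replicate block and, as a setting chosen after seeing the data, total counts alone as library sizes, and was 8 to 9 when 1 mouse was left out, where Spi1 lost its call without C57BL/6 replicate 1 or B6.SLE123 replicate 4. Spic and Ets2 stayed the 2 members over 2-fold under each of these. The sign turned when 1 mouse was left out for uncalled genes only: Elk3 ranged from -0.049 to 0.050 and was -0.005 without C57BL/6 replicate 1, Etv4 from -0.437 to 0.070 (0.025 without B6.SLE123 replicate 3), Elk4 from -0.045 to 0.067 (-0.041 without C57BL/6 replicate 4), Erg from -0.059 to 0.718, and Irf4 from -0.021 to 0.124. Erg was also -0.309 under limma-voom. The cause was not tested.

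Same-numbered mice had correlations of 0.076, 0.229, 0.096 and 0.127 between their deviations from the strain means, all positive. Mice of different numbers had correlations from -0.251 to 0.103. C57BL/6 replicate 1 was closer to B6.SLE123 replicate 3, at 0.083, and C57BL/6 replicate 3 to B6.SLE123 replicate 1, at 0.103. The sample names do not say that the numbers mark pairs, and the main fit does not use them. Whether same-numbered mice shared a factor was not tested. With the block the SE fell for some members, as for Spic from 0.167 to 0.127, and rose for others, as for Fli1 from 0.0428 to 0.0475. With the replicate number as a block, the ratio differences were -2.908 for Spic to Spi1, -0.485 for Spib to Spi1, -0.568 for Spic to red pulp markers, 0.164 for Spib to B cell markers and -0.470 for Ets1 to T cell markers, with an adjusted p of 0.15 each, since 4 pairs give no exact p below 0.125. With 1 mouse left out the smallest exact p is 0.0571, so no ratio could pass: the ranges were -3.030 to -2.746, -0.522 to -0.413, -0.584 to -0.551, 0.130 to 0.191 and -0.555 to -0.421 in the same order, and -0.110 to 0.007 for Spib to plasmacytoid markers. With marker lists shortened after seeing the data, the difference for Spic was -0.385 without Treml4 and Cd68 and -0.271 without Adgre1 and Siglec1 as well, and that for Ets1 was -0.320 without Tcf7 and Cd5, with overlap. Batf3 lost its call under the block (edgeR adjusted p = 0.0631) and in 6 of 8 fits with 1 mouse left out, and Gfi1 and Myb in 4 of 8 each; no other ETS, partner, antagonist or heme gene outside the members did. Depth limited Etv4, Erg and Gata2, which were under 1 CPM.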
